A study of Mus musculus with 11 samples.

Results

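The angiopoietin-Tie axis was followed through 6 genes: the ligands Angpt1 and Angpt2, the receptors Tek (Tie2) and Tie1, the receptor phosphatase Ptprb (VE-PTP) and the transcription factor Foxo1. They were found in the count table by matching each row's Entrez gene identifier to its symbol. All 6 were present among 27179 rows, and all 6 were among the 11948 genes with enough reads to be tested, although Angpt1 got there only through the control libraries.

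The libraries came from CD31hi EMCNhi bone marrow endothelial cells of BALB/c mice, sorted by flow cytometry after cells positive for CD45 or Ter-119 had been gated away. In the burdened mice, 4T1.2 mammary tumour cells expressing red fluorescent protein had colonised bone, and the marrow was microdissected by that fluorescence into areas that held tumour (met) and neighbouring areas without it (non-met). Control cells came from healthy, age-matched BALB/c mice. There were 3 met, 6 non-met and 2 control libraries, made from pools of mice with a low-input kit: 4 pools were burdened, and 3 of these gave both met and non-met libraries. Non-met 1 and 5 shared pool 1, non-met 2 and 6 shared pool 2 with met 1, and met 2 and met 3 shared pools 3 and 4 with non-met 3 and 4. The non-met area is marrow of a tumour-bearing animal, not healthy marrow. No gene was altered in the mice.

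In the vessel wall, Angpt1 from perivascular and stromal cells activates Tie2 on endothelial cells and keeps the endothelium quiescent. Angpt2 is made by the endothelial cells themselves, is stored in Weibel-Palade bodies, and can block or activate Tie2 depending on context. Tie1 binds no angiopoietin with high affinity and modulates Tie2, VE-PTP removes phosphate from Tie2 and from VE-cadherin, and Tie2 signalling through AKT keeps FOXO1 out of the nucleus. Nuclear FOXO1 raises Angpt2 transcription, which closes a loop between the receptor and its context-dependent ligand.

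Total counts ran from 733342 (non-met 4) to 19539761 (control 1), and the share of tested genes with no read from 9.52% (control 1) to 39.9% (non-met 5). Every library held reads of all 8 endothelial markers, Pecam1, Cdh5 and Emcn among them, with summed levels of 6816 to 9449 CPM (reads scaled to a common library total) in control, 7790 to 12205 in non-met and 10639 to 11840 in met libraries. Granulocyte markers summed to 397 to 5132 CPM in non-met libraries against 35.5 to 204 in met and 77.8 to 388 in control libraries, and mitochondrial genes took 6.46% to 16.7%, 4.05% to 9.08% and 5.22% to 6.02% of counts. The 8 mammary epithelial and tumour markers, Epcam and Krt8 among them, summed to 1.03 and 19.5 CPM in control, 11.7 to 75.2 in met and from 1.44 (non-met 1) to 144 (non-met 6) in non-met libraries, so that 3 non-met libraries lay above every met library. The part of these in the results below was not tested. CPM use trimmed mean of M values (TMM) scaling, and because only counts relative to the library total are known, fewer cells making a transcript and less transcript per cell cannot be told apart.

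Compared per kilobase of gene length (RPKM), the receptors and their phosphatase were among the most abundant transcripts of these cells, and the ligands and Foxo1 were far lower. By mean log2 RPKM over the 11 libraries, Tie1 stood at the 98.8th, Tek at the 98.0th and Ptprb at the 96.6th percentile of the genes tested. Foxo1 stood at the 75.9th, Angpt2 at the 65.8th and Angpt1 at the 4.60th percentile. In met libraries the order of mean log2 RPKM was Tie1 (8.50 ± 0.52 SD, n = 3), Tek (7.53 ± 0.34), Ptprb (7.34 ± 0.31), Angpt2 (5.08 ± 0.77), Foxo1 (4.44 ± 0.73) and Angpt1, and control libraries had the same order. Tek and Ptprb, and Angpt2 and Foxo1, were neighbours whose ranges overlapped in met libraries. In non-met libraries Foxo1 (3.56 ± 2.58, n = 6) came before Angpt2 (1.42 ± 3.38), again with overlapping ranges.

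**Figure D1:**
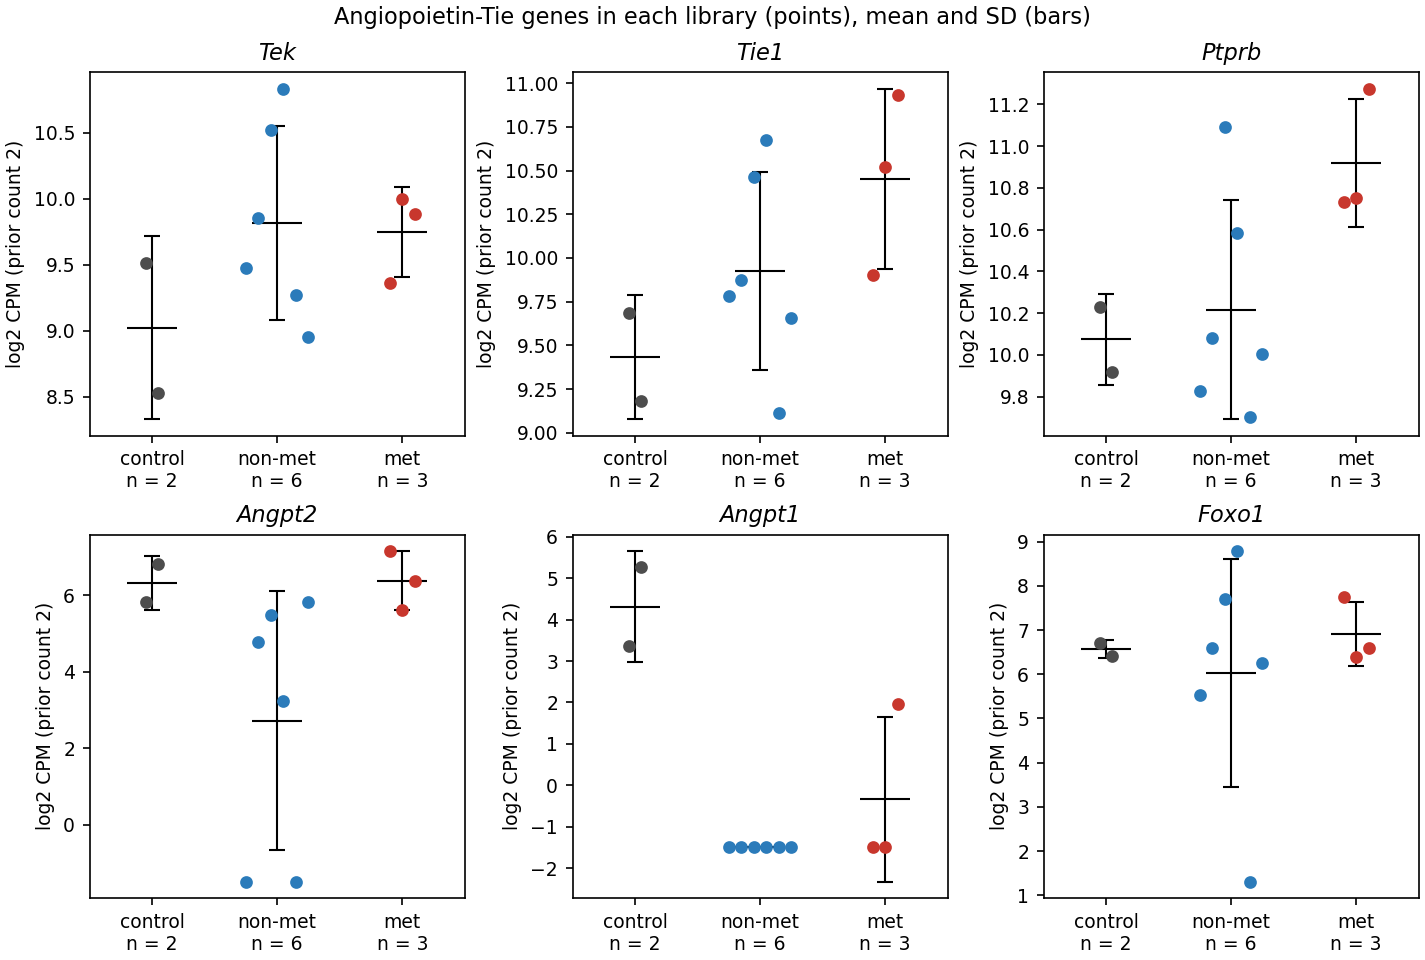
Log2 CPM (prior count 2) of the 6 genes in control, non-met and met libraries; each point is 1 library and the bars give the group mean and SD. Tie1 and Ptprb of all 3 met libraries lie above both control libraries, while Angpt1 lies at the no-read level in 8 libraries and Angpt2 in 2.

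RefSeq's promoter table gives the 250 bases before the start it uses for 3 of the 6 genes (mouse build GRCm38.p6), and those of both receptors are shown because Tek and Tie1, which lie on chromosome 4, had related levels (Pearson r = 0.81 of log2 CPM over the 11 libraries, which share scaling and depth). The Tie1 window ends where the gene begins, whereas the start used for Tek lies inside the gene's span given below, so that most of the Tek window is within the gene. Capitals mark AGGAAG, a 6-base form of the motif of ETS factors, on either strand. The Tie1 window holds 1 copy, read as CTTCCT on the strand shown, and the Tek window holds none. The same letters occur in 29.5% of the 32851 RefSeq windows of this length, so a match is a description only. The 4-base ETS core GGAA, which AGGAAG contains, is found 7 times in the Tie1 window and 2 times in the Tek window and is present in 93.4% of windows. The FOXO motif TGTTTAC (3.17% of windows) is in neither.
Tek, chr4:94739039-94739288, plus strand: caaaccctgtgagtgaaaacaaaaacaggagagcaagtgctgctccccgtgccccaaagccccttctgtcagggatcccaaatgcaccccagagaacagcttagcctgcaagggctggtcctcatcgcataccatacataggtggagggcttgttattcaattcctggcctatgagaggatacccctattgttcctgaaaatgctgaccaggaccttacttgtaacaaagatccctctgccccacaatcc
Tie1, chr4:118489850-118490099, minus strand: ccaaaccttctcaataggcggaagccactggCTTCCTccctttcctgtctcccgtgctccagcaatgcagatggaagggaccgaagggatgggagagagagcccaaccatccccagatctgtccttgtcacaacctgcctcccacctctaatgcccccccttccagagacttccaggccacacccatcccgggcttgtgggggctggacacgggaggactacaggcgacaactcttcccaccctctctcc

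Tek, which encodes the signalling receptor Tie2 (Entrez 21687, chr4:94739086-94874976), was read strongly everywhere and no difference between the groups passed the test. It stood at 729 and 369 CPM in the control libraries, at 656, 1020 and 944 in met 1, 2 and 3, and at a lowest of 495, a median of 816 and a highest of 1824 in the non-met libraries. The ranges of all 3 groups overlapped. The fitted log2 difference was 0.10 (SE 0.187) between met and non-met, 0.51 (SE 0.192) between met and control and 0.41 (SE 0.198) between non-met and control, with adjusted p of 0.941, 0.185 and 0.297 (voomLmFit with sample weights, Benjamini-Hochberg over all genes tested). The exact two-sided permutation p of the unweighted means was 0.893, 0.3 and 0.214, where the smallest possible were 0.0119, 0.1 and 0.0357. Control 1 carried 86.9% of the control weight. Without control 2, Tek was called between met and control (0.43, voomLmFit adjusted p = 0.0250), and without control 1 the differences from control were 1.40 for met and 1.26 for non-met libraries (adjusted p = 0.181 and 0.262).

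Tie1, the co-receptor without a high-affinity angiopoietin ligand (Entrez 21846, chr4:118471191-118489849), was higher in met libraries by the weighted test. It measured 823 and 580 CPM in control and 957, 1469 and 1950 in met libraries, and in non-met libraries the lowest value was 555, the median 910 and the highest 1632. All 3 met libraries lay above both controls, but met and non-met overlapped. The fitted difference was 0.96 (SE 0.149, voomLmFit adjusted p = 0.000721) between met and non-met and 1.19 (SE 0.0929, adjusted p = 4.97e-09) between met and control. Relative to the median of all genes tested, these were 0.88 and 1.29. The plain difference of mean log2 CPM was smaller, at 0.52 and 1.02, with an exact permutation p of 0.179 and 0.2. Non-met and control differed by 0.24 (SE 0.154, voomLmFit adjusted p = 0.398).

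Ptprb, the gene of the phosphatase VE-PTP (Entrez 19263, chr10:116275502-116389538), followed Tie1. It stood at 1199 and 969 CPM in control and 1701, 1721 and 2477 in met libraries, and between 834 and 2184 in non-met libraries with a median of 1056. Met lay above both controls without overlap, and above 5 of the 6 non-met libraries, the exception being non-met 3. The fitted difference was 1.14 (SE 0.171, voomLmFit adjusted p = 0.000488) between met and non-met and 1.01 (SE 0.0361, adjusted p = 5.09e-16) between met and control, or 1.06 and 1.11 relative to the median gene. Unweighted, the means differed by 0.70 and 0.84, with an exact permutation p of 0.0952 and 0.1. The difference between non-met and control was -0.13 (SE 0.168, voomLmFit adjusted p = 0.664).

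Tie1 and Ptprb were thus the 2 of 6 members called in each met comparison, beside 0.427% of all genes tested between met and non-met and 1.20% between met and control. Neither call was made by the 3 other tests (edgeR's quasi-likelihood test, DESeq2, limma-trend): these called 0 members in all comparisons, and at an unadjusted p under 0.05 they held 1, 0 and 1 member between met and non-met and 2, 1 and 3 between met and control, where the 3 include Angpt1, which was tested only because of its control reads and is not counted as support. The weights put most of the evidence on single deep libraries, since for Ptprb control 1 carried 99.8% of the control weight and met 3 carried 93.2% of the met weight, and for Tie1 the shares were 94.8% and 83.3%. Without met 3, Tie1 measured 0.50 (adjusted p = 0.516) and Ptprb 0.65 (adjusted p = 0.0747) between met and non-met. Without non-met 2, Tie1 measured 0.97 (adjusted p = 0.0519) and Ptprb 1.15 (adjusted p = 0.0757). Against control, the Tie1 call was lost without met 3 (0.73, adjusted p = 0.121) and the Ptprb call without control 1 (1.40, adjusted p = 0.127), while Ptprb measured 0.52 without met 3. With the mouse pool as a fixed block, which the labels support because met and non-met came from the same animals, and which drops the controls, Tie1 differed by 0.11 and Ptprb by 0.03, both with a voomLmFit adjusted p of 1.00, and the count of members called was 0 (0 also at an unadjusted p under 0.05). With the pool as a random block and all 11 libraries, both stayed called (0.98, voomLmFit adjusted p = 0.000690, and 1.15, adjusted p = 0.000422). The general endothelial marker Pecam1 was also higher in met libraries, with mean log2 CPM of 11.38, 10.68 and 10.105 in met, non-met and control. For Tie1 these were 10.45, 9.93 and 9.43, and for Ptprb 10.92, 10.22 and 10.07. Of the other markers, Egfl7 was lower in met than in non-met, and Erg and Cldn5 lower in met than in control. The part of a shared endothelial rise in the calls was not tested.

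**Figure D2:**
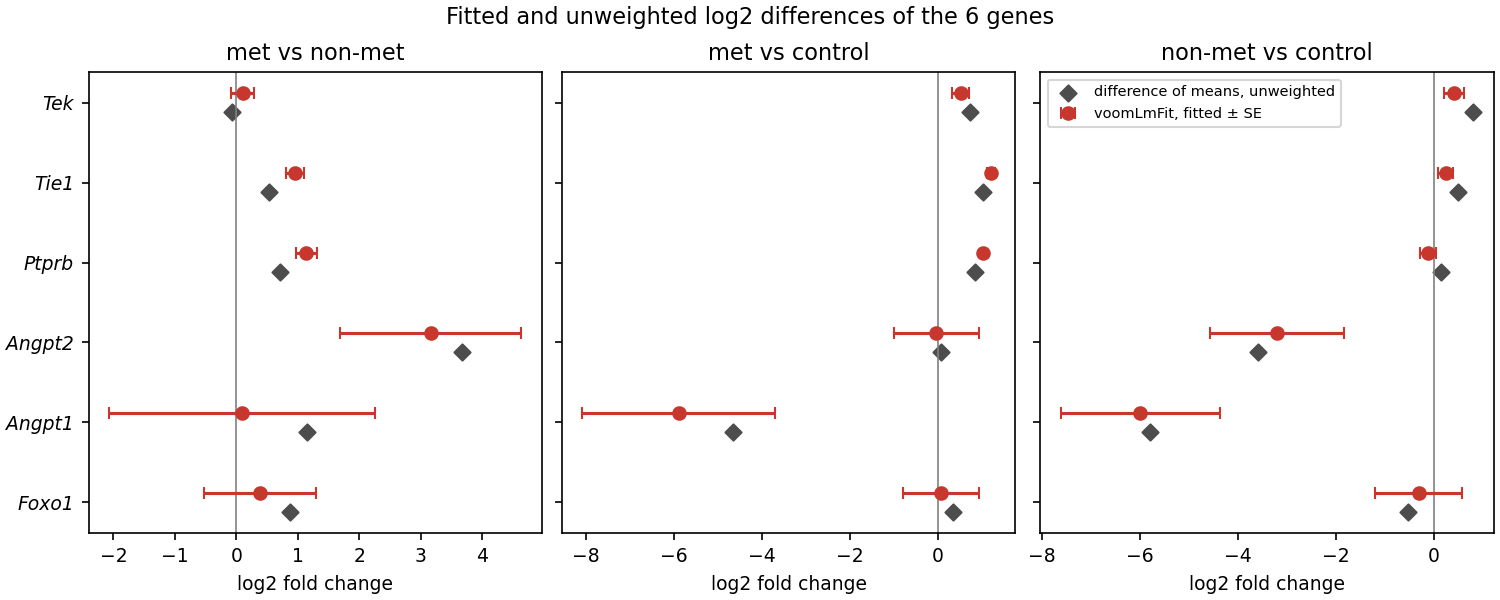
Log2 fold changes of the 6 genes in the 3 comparisons, as fitted by voomLmFit (circles, with SE) and as the unweighted difference of mean log2 CPM (diamonds). Tie1 and Ptprb have narrow errors and fitted values above the unweighted ones in both met comparisons, and the ligands and Foxo1 have errors of 0.86 to 2.18.

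Within the 3 pools that held both areas, Tie1 and Angpt2 were higher in the met area of each. The difference in log2 CPM, met minus non-met, was 0.14, 0.05 and 0.26 for Tie1 and 1.86, 0.15 and 3.15 for Angpt2 in pools 2, 3 and 4. The Angpt2 value of pool 4 rests on 5 reads in non-met 4 (9.05 CPM, near the floor of 5.43 CPM). In pool 3 Angpt2 was nearly equal, at 49.1 CPM in met 2 and 44.2 CPM in non-met 3. Ptprb was higher in pools 2 and 4 (0.69 in both) and lower in pool 3 (-0.34). Tek was lower in the met area of all 3 pools (-0.04, -0.53 and -0.95), opposite in sign to its fitted value. Foxo1 was higher in pool 2 (1.31) and lower in pools 3 and 4 (-1.31 and -2.19). In pool 2 the pair of non-met libraries was averaged, and for Tek its met library lay between them. With 3 pools these values are a description, with no test.

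**Figure D3:**
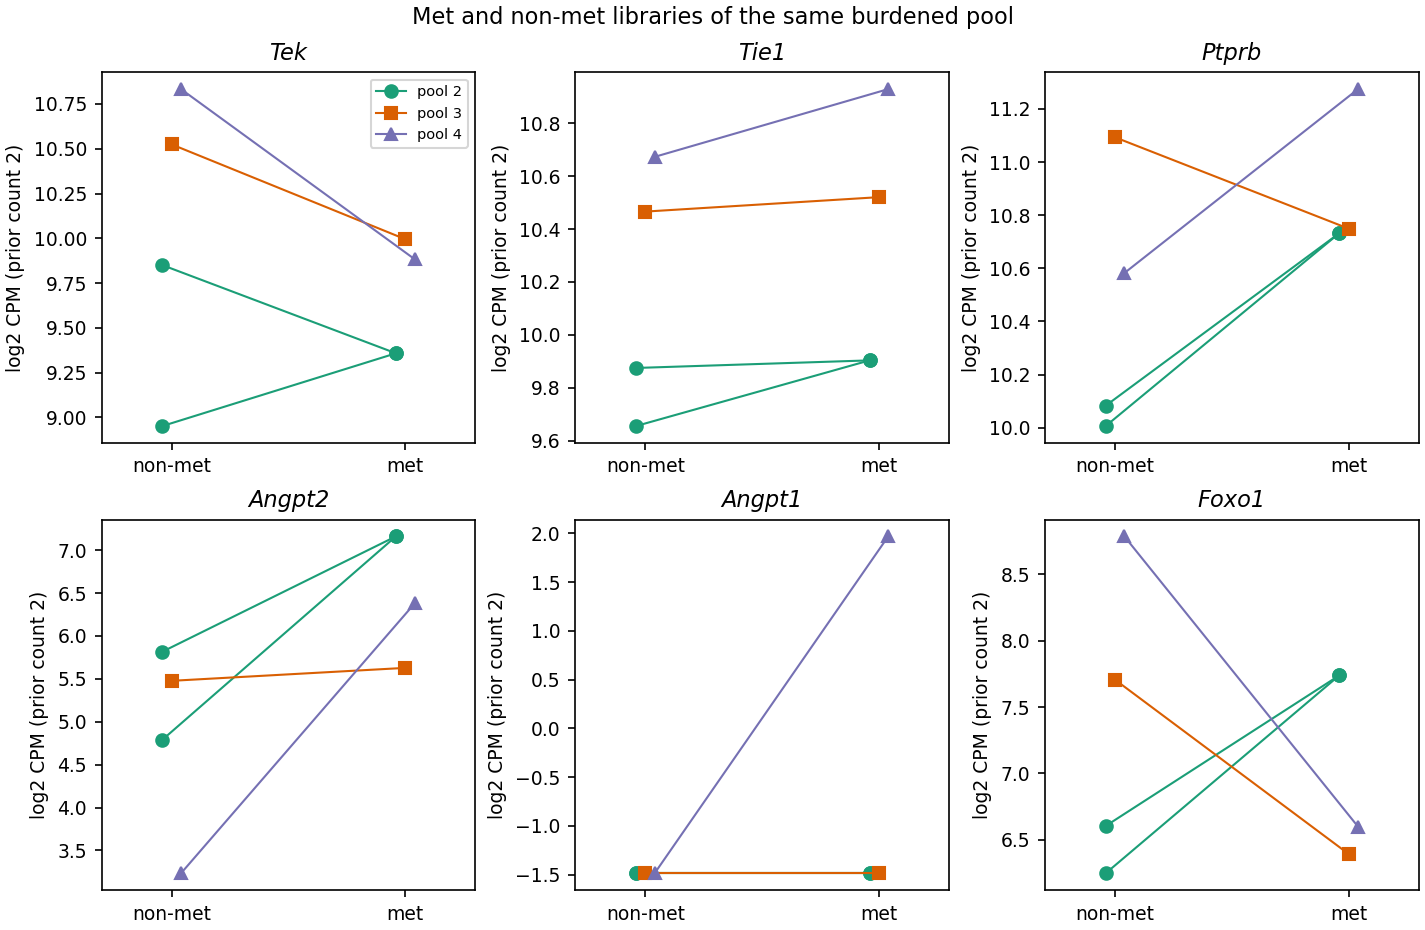
Log2 CPM (prior count 2) of the 6 genes in the non-met and met libraries of pools 2, 3 and 4, joined within a pool; pool 2 has 2 non-met libraries. The Tie1 and Angpt2 lines rise in each pool, whereas the Foxo1 lines fall by 1.31 and 2.19 in pools 3 and 4.

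Inside a library the ratio of 2 genes does not depend on the scaling between libraries. Tie1 exceeded Tek in 11 of 11 libraries, by 0.44 and 0.91 log2 RPKM in control, 0.10 to 0.97 in non-met and 0.79 to 1.31 in met libraries. Tie1 also exceeded Ptprb in 11 of 11, by 0.79 to 1.71 over all libraries. Ptprb lay below Tek in every non-met library (-1.61 to -0.30) and passed it in 2 met and 1 control library (met -0.60 to 0.04, control -0.64 and 0.03). The met and non-met ranges overlapped for both ratios. Tek exceeded Angpt2 in 11 of 11 libraries, by 0.80 and 2.77 in control and 1.29 to 3.46 in met libraries. In the non-met libraries with Angpt2 reads the difference was 2.23 (non-met 6) to 6.69 (non-met 4). It was 10.05 and 9.85 in non-met 1 and 5, which held no Angpt2 read.

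**Figure D4:**
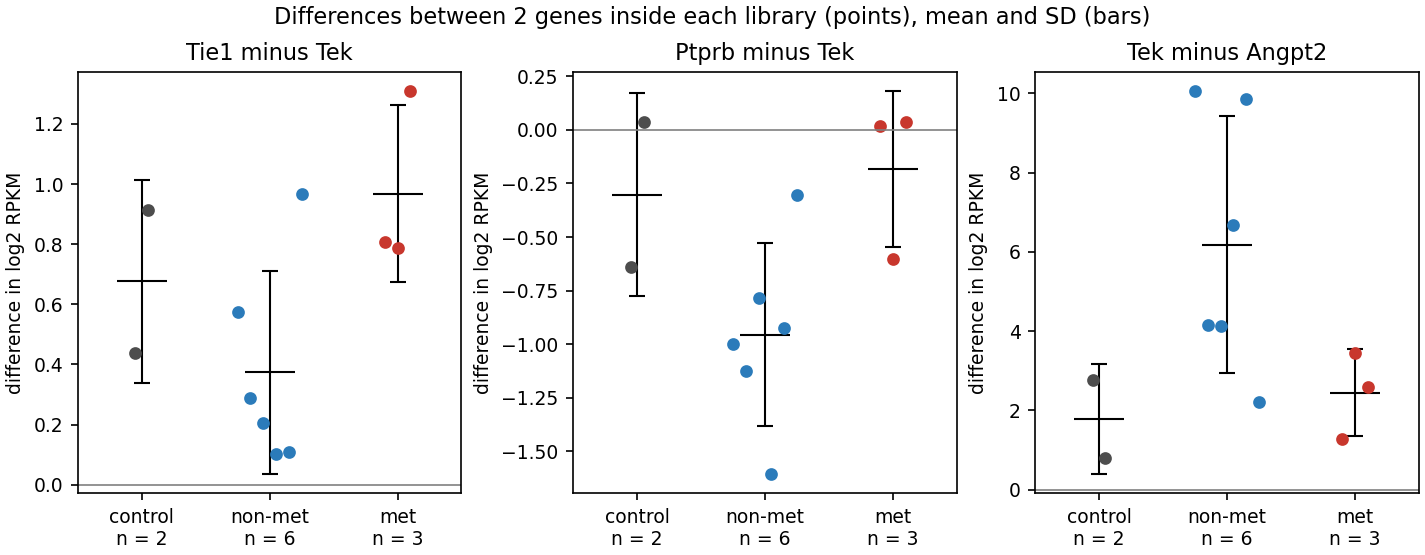
Differences in log2 RPKM between 2 genes inside each library, by group, with group mean and SD; a value above 0 means that the gene named at the left is higher. Tie1 is above Tek in all 11 libraries, by at least 0.79 in met libraries and at least 0.10 in non-met libraries; the 2 highest points of Tek minus Angpt2 are the libraries with no Angpt2 read.

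Angpt2, the endothelial ligand (Entrez 11601, chr8:18690263-18741562), was lower in all non-met libraries than in both controls, and the difference did not pass the test. It was read at 56.4 and 112 CPM in control and at 143, 49.1 and 82.8 in met libraries. The non-met libraries had a lowest value of 0, a median of 18.2 and a highest of 56.0, so that non-met 6 came within 1 CPM of control 1. Non-met 1 and 5, the libraries of pool 1, held no Angpt2 read, which allows up to 0.541 and 1.59 CPM (3 reads, counting error only). Of the genes with a mean of at least 10 CPM, these 2 libraries also lacked a read for 22.0% and 30.1%, against 4.37% to 19.99% in the other libraries, and the part of this in the Angpt2 values was not tested. The fitted difference was -3.20 (SE 1.37, voomLmFit adjusted p = 0.243, exact permutation p = 0.143) between non-met and control and 3.16 (SE 1.47, adjusted p = 0.671, exact permutation p = 0.107) between met and non-met. Met and control differed by -0.04 (SE 0.968, voomLmFit adjusted p = 0.988). The size of the other differences depended on single libraries and on the test: leaving out a library gave -4.06 (without non-met 6) to -2.30 (without non-met 1) between non-met and control and 2.24 to 4.02 between met and non-met, with the same libraries at the ends. DESeq2 gave -1.89 and 1.90, and the fixed pool block 1.83 between met and non-met.

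Angpt1, the ligand that activates Tie2 (Entrez 11600, chr15:42424667-42676977), had reads in both controls and in 1 of the 9 libraries from burdened mice. The controls held 203 and 215 reads, or 9.92 and 38.0 CPM. All 6 non-met libraries and met 1 and 2 held 0 reads, and met 3 held 31 reads (3.56 CPM). With group reads pooled and a floor of 3 reads (0.156 CPM), control was at least 102.55-fold higher than non-met. This bound was 63.6-fold without control 2 and 243.7-fold without control 1. Met, through met 3 alone, was at least 12.2-fold higher. Floors of single non-met libraries ran from 0.435 (non-met 2) to 5.43 CPM (non-met 4), against 9.92 CPM in control 1 and 3.56 CPM in met 3. Of the genes with a mean of at least 10 CPM, non-met 5 lacked a read for 30.1%, control 2 for 18.9% and control 1 for 4.37%. The bounds thus cover counting error over the group only, not transcripts missed in single libraries. Because Angpt1 had enough reads to be tested through the control libraries alone, these values are a description, with no test.

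Mural and stromal cells are known sources of Angpt1 in marrow. The summed level of their markers (13 genes, 9 of them at 10 CPM or more in control libraries) was 4137 and 10975 CPM in control, 1285 to 4231 in non-met and 576 to 3349 in met libraries, so that non-met 5 lay above control 1, and 1 to 5 of the 13 were at 0 reads. Most of the sum in the controls was Cxcl12, at 3224 and 8721 CPM against 555 to 2603 in non-met and 225 to 1801 in met libraries. Lepr, a marker of marrow stroma, stood at 246 and 979 CPM in the controls and at most at 221 (non-met 5) in the libraries of burdened mice. Of the 13 genes, 8 had a higher mean in control than in non-met libraries and 8 than in met libraries. Both controls lay above every non-met library for 3 (Cxcl12, Lepr and Cspg4) and above every met library for 4 (Cxcl12, Lepr, Pdgfrb and Col1a2), and below every library of either group for 0. Of all genes tested, 5.03% had both controls above every non-met library and 12.3% above every met library. The shares with both controls below were 1.26% and 8.43%. The pericyte receptor gene Pdgfrb stood at 155 and 285 CPM in control, between 62.8 and 116 in met and between 1.81 and 318 in non-met libraries, whereas the smooth muscle gene Tagln had 0 reads in both controls and up to 112 CPM in met libraries. Megakaryocytes also express Angpt1; their 8 markers summed to 0 and 31.3 CPM in control, 0 to 57.7 in non-met and 42.6 to 123 in met libraries, and Pf4 had 0 reads in both controls. The sort gated on CD31 and EMCN and removed CD45+ and Ter-119+ cells. The part of these cells in the Angpt1 levels was not tested.

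Between non-met and control, 0 of 6 members were called by voomLmFit, beside 0.636% of all genes, and 2 of them, Angpt1 and Angpt2, had an unadjusted p under 0.05. The 3 other tests also called 0, with 1 (edgeR's quasi-likelihood test), 2 (DESeq2) and 1 (limma-trend) members at an unadjusted p under 0.05. Angpt2 had every non-met library below every control, a pattern that 5.03% of all genes showed. Angpt1 also lay below control in every non-met and every met library (12.3% of all genes for met), but it was tested only because of its control reads, so neither its direction nor its p is read as a result. In the met comparisons, 2 of 6 members (Tie1, Ptprb) had every met library above every control, as did 8.43% of all genes. No member had every met library above every non-met library, against 1.54% of all genes.

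Foxo1, the factor that Tie2 signalling holds out of the nucleus (Entrez 56458, chr3:52268337-52350109), varied widely among the non-met libraries. It stood at 104 and 85.3 CPM in control and 213, 83.6 and 96.5 in met libraries. In non-met libraries it ran from 2.12 (4 reads, non-met 5) over a median of 86.2 to 441 (non-met 4), a range that contains every other library. The fitted differences were 0.38 (SE 0.903) between met and non-met, 0.07 (SE 0.860) between met and control and -0.31 (SE 0.887) between non-met and control, with voomLmFit adjusted p of 0.955, 0.976 and 0.838 and exact permutation p of 0.643, 0.9 and 0.714. Transcript levels do not show where the FOXO1 protein lay.

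Of the 61 other genes of the axis, from ligands and Tie-binding matrix through receptor-proximal adaptors, the PI3K-AKT arm, FOXO factors and targets, and VE-PTP partners to integrins, 55 were tested. By voomLmFit 1 rose between met and non-met, 3 rose between met and control, and 2 rose and 1 fell between non-met and control, beside 0.427%, 1.20% and 0.636% of all genes called. The 1 that fell, Svep1, had no non-met read and was tested only because of its reads in the other groups. Over the 55 genes the median log2 difference was -0.00, 0.16 and 0.20, against 0.08, -0.09 and -0.33 over all genes tested. Between met and non-met, 27 of the 55 fitted differences were above 0.

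Insr, the insulin receptor gene and a known FOXO target, was higher in tumour-burdened marrow. It stood at 414 and 303 CPM in control, between 689 and 2081 in non-met libraries and between 789 and 1021 in met libraries, so that both burdened groups lay above control without overlap. Of all genes, 1.26% had every non-met library above both controls and 8.43% every met library, and of the 55 pathway genes 4 (Insr, Itgb1, Klf2 and Nos3) and 12 did. It rose by 1.81 (SE 0.211, voomLmFit adjusted p = 1.40e-05, exact permutation p = 0.0357) between non-met and control and by 1.336 (SE 0.225, adjusted p = 0.000992) between met and control. DESeq2 and limma-trend also called the non-met difference, while edgeR's quasi-likelihood test did not (adjusted p = 0.0706), and none of the 3 called the met difference (adjusted p = 0.189 to 0.886). The non-met call was lost without control 1 (2.19, adjusted p = 0.0823), and the met call without control 1 or met 3 (1.75 and 1.15, adjusted p = 0.175 and 0.150).

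Svep1 encodes a matrix protein that binds Tie1, and its pattern resembled that of Angpt1 in the non-met libraries. It had 28.0 and 69.5 CPM in control, 0 reads in all 6 non-met libraries, and 89.0, 14.2 and 0 CPM in met 1, 2 and 3. Its fit was lower in non-met than in control (voomLmFit adjusted p = 0.0344, exact permutation p = 0.0357). With group reads pooled and the 0.156 CPM floor, control was at least 236.75-fold higher (179-fold without control 2 and 445-fold without control 1). Single non-met libraries had higher floors, so this bound covers counting error over the group only, not transcripts missed in single libraries. Because Svep1 was tested only through its control and met reads, neither its direction nor its p against non-met is read as a result. Leaving out any 1 of non-met 2 to 6 took its adjusted p to between 0.0520 and 0.0740, and the 3 other tests did not call it. Between met and non-met it was not called by voomLmFit (3.82, SE 2.45, adjusted p = 0.753, exact permutation p = 0.0833) but was called by DESeq2 (8.60, adjusted p = 0.0266), and not by the 2 other tests (adjusted p = 0.525 and 0.911). The ligand Angpt4 had 350 reads in control 1 and 0 in the 10 other libraries, and was not tested.

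Itgb1, the integrin beta-1 chain, and Cdh5, the VE-cadherin that VE-PTP dephosphorylates, were both higher in met libraries than in control. Itgb1 stood at 896 and 791 CPM in control, between 1886 and 2190 in met libraries and between 912 and 2164 in non-met libraries, a rise of 1.10 (SE 0.0433, voomLmFit adjusted p = 4.10e-15) in met and 0.68 (SE 0.110, adjusted p = 0.00163) in non-met over control. The exact permutation p was 0.1 and 0.107, and a single control library carried 98.5% of the control weight. Between met and non-met Itgb1 differed by 0.42 (SE 0.105, voomLmFit adjusted p = 0.107, exact permutation p = 0.0833) and was not called. Without control 1 neither difference was called, although both were larger (1.33 and 0.91, adjusted p = 0.135 and 0.358), and without non-met 2 the non-met difference was 0.14 (adjusted p = 0.433). Cdh5 was above every non-met library in all 3 met libraries, at 1871 to 2099 against 1026 to 1863 CPM (0.56, SE 0.112, voomLmFit adjusted p = 0.0157, exact permutation p = 0.0238), a separation shown by 1 of the 55 pathway genes and 1.54% of all genes. Neither p takes account of the pools that these libraries share. Against controls of 1728 and 1001 CPM it was 0.12 higher (SE 0.0231, adjusted p = 0.00420), a fit in which control 1 carried 99.98% of the control weight, and 0.96 higher without that library. Leaving out non-met 1, 2 or 5 or met 1 or 3 took the adjusted p between met and non-met to between 0.0594 and 0.161. The 3 other tests called neither gene, and the fixed pool block put the Cdh5 difference at 0.33 (voomLmFit adjusted p = 1.00).

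**Figure D5:**
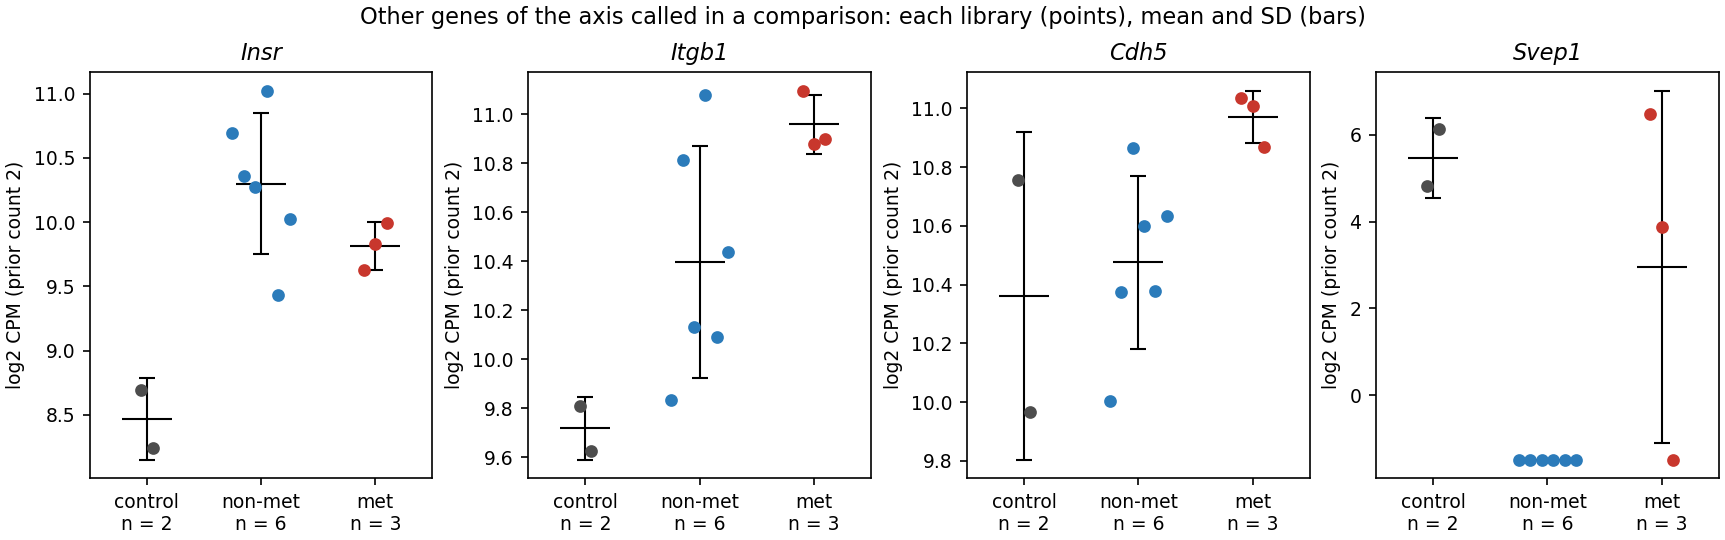
Log2 CPM (prior count 2) of the 4 other genes of the axis that passed the weighted test in a comparison, by group; points are libraries and bars are mean and SD. Insr of all 9 libraries from burdened mice lies above both controls, and Svep1 lies at the no-read level in all 6 non-met libraries and met 3.

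The other named genes of the pathway did not pass the weighted test. Akt1, the kinase between Tie2 and FOXO1, was lower in every non-met library (110 to 285 CPM) than in the controls (335 and 357), with a fitted difference of -0.65 (SE 0.400, adjusted p = 0.381). That pattern was shown by 2 of the 55 pathway genes (Akt1, and Svep1 with no non-met read), beside 5.03% of all genes. Pik3r1, a regulatory subunit of PI3 kinase, ranged from 103 to 785 CPM with no group apart. Dok2, a Tie2 adaptor, had reads in 3 of 11 libraries. Foxo3 and Foxo4, related FOXO factors, reached at most 43.5 and 90.3 CPM, and the FOXO target Ccng2 ran from 0 to 233 CPM. Irs2, another target, was not tested.

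Among 9522 genes with a mean of at least 10 CPM, those whose log2 CPM over the 11 libraries resembled each member most were the following, given as a description. For Tie1 they were Adam15 (r = 0.94), the endothelial diaphragm gene Plvap (0.89) and Cds2 (0.88), and for Tek Bmp2k (0.90), Pigyl (0.89) and Lamp1 (0.89). For Ptprb they were the protease inhibitor gene Timp3 (0.94), Sec14l2 (0.93) and Eef2 (0.89). Angpt1 was nearest to the growth factor gene Bmp4 (0.96), E2f6 (0.94) and the activin inhibitor gene Fst (0.90). Their means in control libraries (78.1, 53.2 and 44.5 CPM) were above those in non-met libraries (0.210, 0.457 and 0.200 CPM), which follows from choosing them by likeness to Angpt1. Angpt2 was nearest to Frs2, 2310022B05Rik and Nudt16l1 (all 0.96), and Foxo1 to Gnl3, Cttn (both 0.96) and Fam219b (0.95). Among the members themselves, Tie1 and Ptprb were the closest pair (0.87), followed by Tek and Tie1 (0.81), while Tek and Angpt1 had the lowest value (-0.46). The libraries share depth and composition, which enter every such value.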

How the data were processed

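RNA of sorted endothelial cells was made into libraries with the Clontech SMART-Seq v4 Ultra Low Input kit. The authors aligned reads to mm10 with Rsubread, counted them per gene with featureCounts against its built-in NCBI annotation, and deposited the raw counts analysed here, whose tables also hold the gene length used for RPKM. Strand use is not given in the sources used here. Rows were named by Entrez identifier from RefSeq (GRCm38.p6, the assembly behind mm10; 25275 rows) or, for 18 rows, from GENCODE; 1886 unnamed, 36 ribosomal RNA and 1794 predicted-gene rows were left out (1.94% to 15.7% of a library's counts), which left 23463.

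Genes were kept by filterByExpr (minimum count 10, total 15). Libraries were scaled by TMM and fitted by voomLmFit with sample weights (edgeR 4.0.16, limma 3.58.1, R 4.3.3) in 1 model of 11 libraries without covariates, with Benjamini-Hochberg adjustment over 11948 genes and a threshold of 0.05. Log2 CPM and RPKM used a prior count of 2. Single genes also had an exact two-sided permutation test over libraries, which treats libraries of a shared pool as independent. The functions were tested on simulated data. Libraries are pools of mice, and those of a burdened pool share animals, so libraries are not all independent; the Spearman correlation of deviations from group means ran from -0.032 to 0.020 for met and non-met libraries of a pool, and was -0.239 and -0.152 for the non-met pairs, so the pairing rests on the labels. Alternatives were edgeR's quasi-likelihood test, DESeq2 1.42.0, limma-trend, no sample weights, other scalings, no filter, the mouse pool as a fixed or random block, and each library left out. Another, with 7 libraries only, and the alternatives for pathway genes were added after seeing the data. Intervals and floors cover counting error only. The text names all 6 members, pathway genes called in a comparison (up to 5 a direction) and 9 fixed ones, and the 3 genes most like each member. The members and lists were chosen with earlier results of these data known.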

Additional observations from a re-analysis of the deposited data

How the results depend on the processing

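A floor of 3 reads was 0.147 CPM in control 1 and 5.43 CPM in non-met 4, and the ligands and Foxo1 lay at or near the floor in some libraries. The part of depth in their values was not tested. With 2 control libraries, no exact test against met could go below 0.1. The median log2 difference of all genes moved with the scaling, from 0.08 to -0.09 (RLE) and 0.14 (library size) between met and non-met, from -0.09 to -0.17 and -0.23 between met and control, and from -0.33 to -0.24 and -0.54 between non-met and control. The causes of the changes below were not tested.

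The count of members called was 2, 2 and 0 between met and non-met, met and control, and non-met and control. It was 0 in the first 2 comparisons under edgeR's quasi-likelihood test, DESeq2 and limma-trend, 0 between met and non-met with the mouse pool as a fixed replicate block (without the controls, 9432 genes) or with 7 libraries (met and non-met 3 to 6, each with at least 4 CPM of the epithelial gene Krt8), and 1 (Angpt1) between non-met and control with no filter. Leaving out each library gave 0 to 2, 1 to 3 and 0 to 0. With the pool as a random block no member's call changed.

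All genes called numbered 51, 143 and 76. Between met and non-met they were 16 (quasi-likelihood), 324 (DESeq2), 2 (limma-trend), 79 (no filter), 27 (fixed pool block) and 13 (7 libraries). Between met and control they were 10, 228 and 9 by the same 3 tests, 274 without sample weights and 429 with no filter, and between non-met and control 14, 266 and 8, then 140, 184 and, with library size scaling, 160. Leaving out each library gave 16 to 87, 36 to 293 and 33 to 228, lowest without met 3, met 3 and non-met 5 and highest without control 1, control 2 and control 2.

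Pathway genes called numbered 1, 3 and 3, where the last count includes Svep1, which had no non-met read. Between met and non-met they were 0 by the quasi-likelihood test, limma-trend, the fixed pool block and 7 libraries, 2 without sample weights or with RLE scaling, and 3 with library size scaling or no filter. Between met and control they were 0 by all 3 other tests, and between non-met and control 0 by the quasi-likelihood test, 1 by DESeq2 and limma-trend, and 5 with library size scaling. Leaving out each library gave 0 to 4, 1 to 3 and 1 to 5.

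Members whose differences changed sign did not pass the main test. Tek between met and non-met (0.10) was -0.20 (quasi-likelihood), -0.36 (DESeq2), -0.072 (limma-trend), -0.036 (RLE), -0.58 (fixed pool block), -0.24 (7 libraries) and -0.023 to 0.20 with a library left out. Angpt1 (0.10) was -0.094 (RLE), -0.53 (no filter) and -0.93 to 0.70, and kept its sign at 5.77 (quasi-likelihood), 3.66 (DESeq2) and 1.15 (limma-trend). Foxo1 (0.38) was -0.14 (quasi-likelihood), -0.28 (DESeq2), -1.26 (fixed pool block) and -0.057 (7 libraries). Between met and control, Angpt2 (-0.04) was 0.12 (quasi-likelihood), 0.015 (DESeq2), 0.069 (limma-trend), 0.26 (no sample weights) and -0.59 to 0.40 with a library left out, and Foxo1 (0.07) was -0.027 (RLE), -0.075 (library size) and -0.045 to 0.34. Between non-met and control, Ptprb (-0.13) was 0.22 (quasi-likelihood), 0.28 (DESeq2), 0.14 (limma-trend) and -0.23 to 0.17, and Foxo1 (-0.31) was 0.61 (quasi-likelihood), 0.69 (DESeq2) and -0.61 to 0.069. Mean log2 RPKM of all 6 members moved by less than 1 SD under both other scalings.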
